A study of Macaca mulatta with 23 samples.

Results

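The genes described here are 10 that encode receptors, or the signalling partner of receptors, first characterised on natural killer (NK) cells and also carried by differentiated CD8+ T cells. They are NCR3, KLRD1, KLRK1, KLRC3, KLRB1, KLRG1, CD160, CD244, CD226 and TYROBP. They were chosen by symbol with earlier results of these data known, so a member that stands out is not independent of the choice. Every probe of each gene on the array was taken. That gave 15 of the 47230 probes, and 9 of the 10 genes were among the 9190 genes tested. The arrays hold RNA of CD8+ effector memory T cells (TEM) that were sorted from blood mononuclear cells of rhesus macaques. The control arm was given an IgG1 control antibody, with 6 animals measured before and after it. The other arm was given an antibody against interleukin-15 (IL-15), with 5 animals before and 6 after. Arrays of the same animal were paired by the donor label, so 11 of the 12 animals have a change, and anti-IL-15 animal 3 has only the later array. The dose and the interval are not given in the labels, and there was no arm without an antibody.

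NK cells read a target cell by summing activating and inhibitory receptors, and CD8+ effector memory cells take up part of the same set as they differentiate. The lectin-like receptors (KLR genes) lie together in the NK gene complex and mostly bind relatives of MHC class I or lectin-like ligands. Several activating receptors have no signalling tail of their own and pass their signal through small adaptors with tyrosine motifs, such as CD247, FCER1G or TYROBP. IL-15 is the cytokine on which NK cells and memory CD8+ T cells depend for their survival, which is the setting of the comparison.

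The probes were designed on human genes while the RNA was macaque, so a mismatch to the macaque transcript lowers a probe's signal, and levels of different probes are not comparable. Values below are log2 of background-corrected, quantile-normalised intensity, and a change is after minus before in the same animal. Each amplification started from the same RNA mass, so a level is relative to total RNA, and fewer cells of a type and less RNA per cell cannot be told apart. Arrays detected 11263 to 14132 probes. The number of sorted cells was lower after treatment in 9 of 11 paired animals, and after treatment it was 66000 to 259557 cells in the control arm and 20000 to 109000 in the anti-IL-15 arm. Of 7 markers of T cells and CD8, CD3D, CD3G, CD5 and CD8A were detected on 23 of 23 arrays, CD8B on 9 and CD3E on 1, and TRAC had no named probe. The 1 probe of CD4 was detected on 0.

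Of the 15 probes, 10 passed the detection criterion, which asked for a detection p under 0.05 on 5 or more arrays. NCR3, KLRD1 with 2 of its 3 probes, KLRG1 with 1 of 2, CD244 and TYROBP were detected on 23 of 23 arrays. KLRB1 was detected on 18 arrays, CD160 on 16, CD226 on 11 and KLRK1 on 6. All 3 probes of KLRC3, which encodes the activating partner NKG2E of KLRD1, were detected on 0 of 23 arrays, with a lowest detection p of 0.0543, and the gene was not tested. The macaque annotation used here for neighbouring genes held no protein-coding gene of that symbol. A silent gene and a missing target of the human probes therefore cannot be told apart. The third KLRD1 probe and the second KLRG1 probe were also detected on 0 arrays.

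NCR3 (NKp30), an activating receptor of the immunoglobulin family that signals through CD247 and FCER1G, was the member that fell. It had 1 probe on the array, so no second probe could be set beside it. Before the control antibody its levels in animals 1 to 6 were 9.67, 11.09, 9.79, 11.44, 10.88 and 10.57, and after it 10.42, 10.59, 9.94, 11.40, 10.97 and 10.79. Before anti-IL-15 the levels in animals 1, 2, 4, 5 and 6 were 10.89, 10.48, 10.02, 8.29 and 10.43. After anti-IL-15 the levels in animals 1 to 6 were 9.12, 9.69, 8.75, 8.90, 8.46 and 8.97. The arms therefore overlapped before treatment and did not overlap after it, where the highest anti-IL-15 value lay below the lowest control value. The share of all genes tested that separated in this way was not counted. Anti-IL-15 animal 5 was already low before the antibody, and its level after was the lowest of the 6 treated animals.

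**Figure D1:**
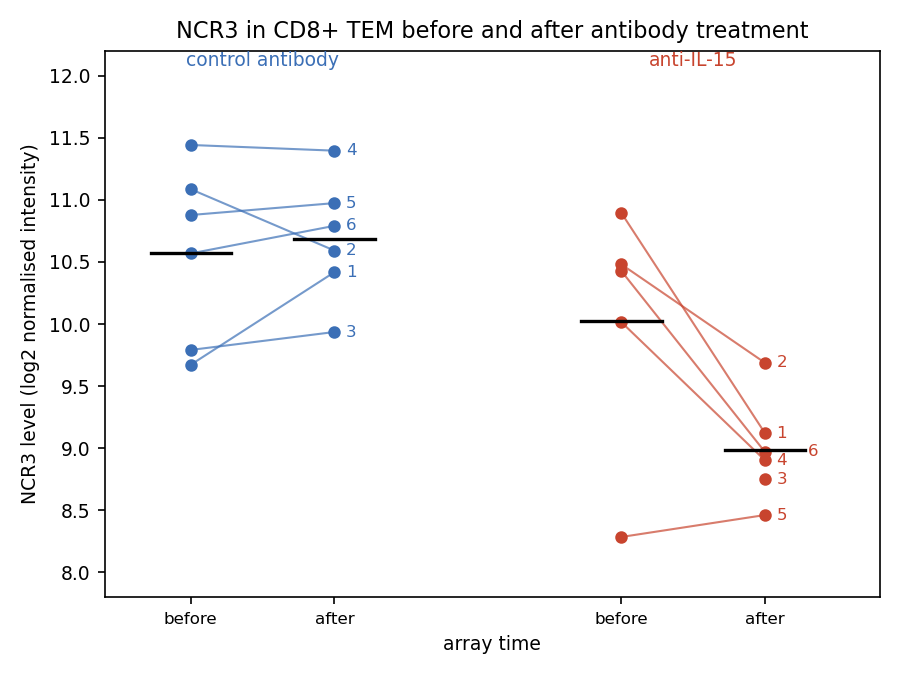
NCR3 level on each array (y axis, log2 normalised intensity) before and after the control antibody (blue) or anti-IL-15 (red). Lines join arrays of 1 animal, numbers name the animal, and black bars are group means. After treatment the control animals lie between 9.94 and 11.40 and the anti-IL-15 animals between 8.46 and 9.69.

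After treatment NCR3 stood at 10.68 ± 0.50 (SD, n = 6) in control animals, against 8.98 ± 0.41 (SD, n = 6) in animals given the anti-IL-15 antibody. The difference was -1.70 (SE 0.24, 95% interval -2.20 to -1.20), which is 3.25-fold lower, with a limma adjusted p of 0.0131. NCR3 was the only gene called in that comparison, in which 0.0109% of the genes tested were called. Before treatment the difference was -0.55 (SE 0.42, limma adjusted p = 0.668), and 0% of genes were called then. Leaving out 1 animal gave differences of -1.85 to -1.56, and the adjusted p passed 0.05 without control animal 5 (0.0632), control animal 6 (0.0563), anti-IL-15 animal 3 (0.0578) or anti-IL-15 animal 6 (0.0519).

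Within animals, the NCR3 changes with anti-IL-15 were -1.77, -0.79, -1.11, 0.18 and -1.46 in animals 1, 2, 4, 5 and 6. With the control antibody they were 0.74, -0.49, 0.14, -0.05, 0.10 and 0.22 in animals 1 to 6. In the anti-IL-15 arm 4 of 5 animals were lower, each by more than any control animal. The fitted change with anti-IL-15 was -0.99 (SE 0.22, limma adjusted p = 0.0452), in a comparison in which 0.816% of genes were called. With the control antibody it was 0.11 (SE 0.21, limma adjusted p = 0.821), in a comparison in which 2.19% were called. The difference between the changes was -1.10 (95% interval -1.74 to -0.47), and it did not pass (limma adjusted p = 0.292, with 0.0109% of genes called), so the fall is not shown to differ between the arms by that test.

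The fall within animals lay close to the threshold. Leaving out anti-IL-15 animal 1 gave a change of -0.80 with a limma adjusted p of 0.259. Leaving out animal 2 gave -1.04 (limma adjusted p = 0.111), animal 4 -0.96 (0.113) and animal 6 -0.88 (0.0752). Leaving out animal 5, which went the other way, gave -1.28 (limma adjusted p = 0.00967). Leaving out control animal 5 or 6 left the change as it was and moved its adjusted p to 0.0664 or 0.0526. With the log2 number of sorted cells as a covariate the change was -0.77 (SE 0.35, limma adjusted p = 0.888). That fit called 2 of 9190 genes with anti-IL-15, against 75 without the covariate. With the same covariate the difference of the arms after treatment was -1.82 (limma adjusted p = 0.0307), in a comparison with 11 genes called.

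**Figure D2:**
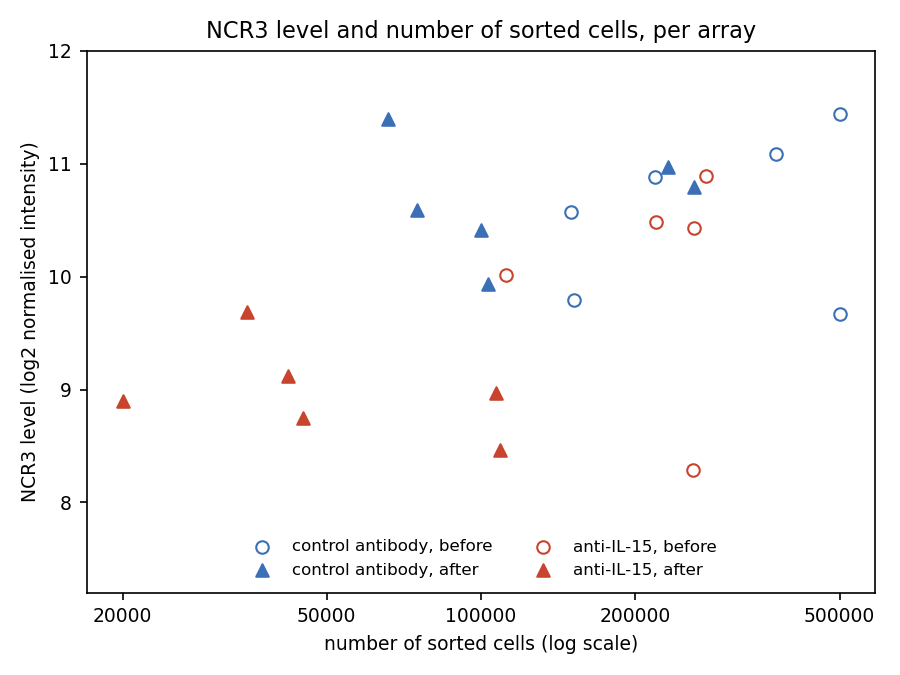
NCR3 level of each array (y axis, log2 normalised intensity) against the number of sorted cells (x axis, log scale), with open circles before and filled triangles after treatment, blue for the control antibody and red for anti-IL-15. The anti-IL-15 arrays after treatment come from 20000 to 109000 cells and lie below the control arrays after treatment, which come from 66000 to 259557.

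The genes whose changes over the 11 paired animals were most like those of NCR3 were MATK (Pearson r = 0.89), CPNE8 (0.87) and POM121C (0.87). These correlations describe 11 animals in 2 arms that share a before and after design, and they carry no test. MATK, a tyrosine kinase of blood cells, changed by -0.19 in the anti-IL-15 arm and by 0.51 in the control arm. CPNE8, a calcium-dependent membrane-binding protein, fell by 1.85 with anti-IL-15 (limma adjusted p = 0.0256), and it was detected on 7 arrays. POM121C, a nuclear pore protein, changed by -0.40 and 0.27.

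Of the 9 members tested, NCR3 was the 1 called with anti-IL-15, and none of the 9 was called with the control antibody, in the difference of changes or in the mean change over both arms. The shares of all genes called were 0.816%, 2.19%, 0.0109% and 7.09%, so few or no calls among 9 genes set them little apart. At an unadjusted p under 0.05, limma found 1, 0, 1 and 2 members in those comparisons, in which 15.3%, 19.2%, 9.70% and 24.0% of all genes were under that p. The median change of the 9 was -0.04 in the anti-IL-15 arm and 0.01 in the control arm, beside -0.05 and -0.04 over all genes tested.

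**Figure D3:**
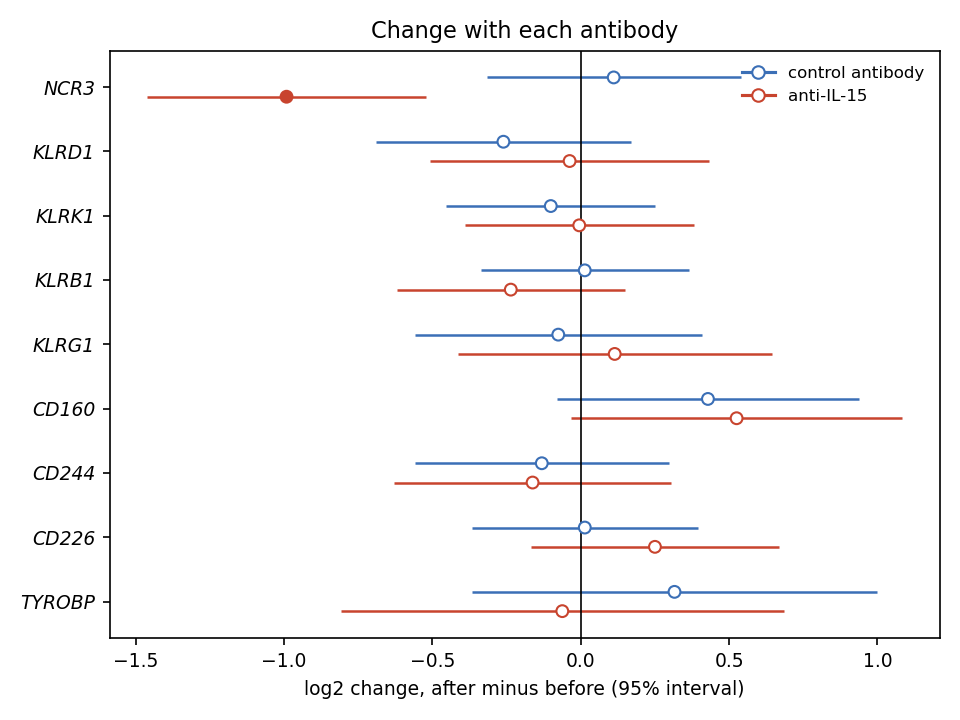
Log2 change after minus before (x axis) of the 9 tested genes with the control antibody (blue) and with anti-IL-15 (red), with 95% intervals from the limma fit. Filled points passed an adjusted p of 0.05, which only NCR3 with anti-IL-15 did, at -0.99.

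KLRD1 (CD94) is the shared subunit of the NKG2 heterodimers that bind HLA-E, and it was read by 2 probes. On the brighter probe the lowest, median and highest of all 23 levels were 8.76, 10.52 and 11.40. Group means were 10.46 ± 0.68 (SD, n = 6) before and 10.20 ± 0.56 (n = 6) after the control antibody, and 10.31 ± 0.84 (n = 5) before and 10.32 ± 0.85 (n = 6) after anti-IL-15. All 4 groups overlapped. The change was -0.26 (95% interval -0.69 to 0.17) with the control antibody and -0.04 (-0.51 to 0.43) with anti-IL-15, and neither was called. The other probe changed by -0.45 and -0.09, and both probes went the same way in 9 of 11 animals.

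KLRK1 (NKG2D), an activating receptor for the stress-induced MICA, MICB and ULBP proteins, lies next to KLRD1 in the macaque annotation. Its probe was at the edge of detection, on 2, 1, 1 and 2 arrays of control before, control after, anti-IL-15 before and anti-IL-15 after. Group means ran from 4.60 to 4.75, a span below the SD of each group. The change was -0.10 (-0.45 to 0.25) with the control antibody and -0.0049 (-0.39 to 0.38) with anti-IL-15, on a probe below detection on 17 of the 23 arrays.

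KLRB1 (CD161), a receptor for the lectin-like CLEC2D that marks innate-like and tissue-homing T cells, varied mainly between animals. Before and after the control antibody its levels were 4.71 and 4.89 in animal 1, 7.15 and 7.05 in animal 2, 4.84 and 4.88 in animal 3, 5.68 and 6.07 in animal 4, 7.29 and 6.83 in animal 5, and 6.27 and 6.30 in animal 6. Animals 1 and 3 were below detection at both times, and animals 2 and 5 were the highest at both times. In the anti-IL-15 arm animals 1, 2, 4, 5 and 6 went from 5.58 to 5.47, 5.22 to 5.10, 5.01 to 4.58, 5.75 to 5.44 and 6.51 to 6.31, and animal 3 stood at 5.66 after.

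KLRB1 was lower after anti-IL-15 in 5 of 5 animals, by 0.11 to 0.43. The largest of these falls, in animal 4, ended on an array where the probe was below detection. The fitted change was -0.24 (95% interval -0.62 to 0.15, limma adjusted p = 0.568), and with the control antibody it was 0.01 (-0.34 to 0.36). Both intervals use a variance pooled over the arms. The SD of the changes themselves was 0.13 with anti-IL-15 (n = 5) and 0.29 with the control antibody (n = 6). The intraclass correlation, the share of variance that lies between animals of an arm, was 0.96 for KLRB1, against a median of 0.13 over all genes tested, and 99.9% of genes had a lower value. The SD within an animal was 0.16.

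**Figure D4:**
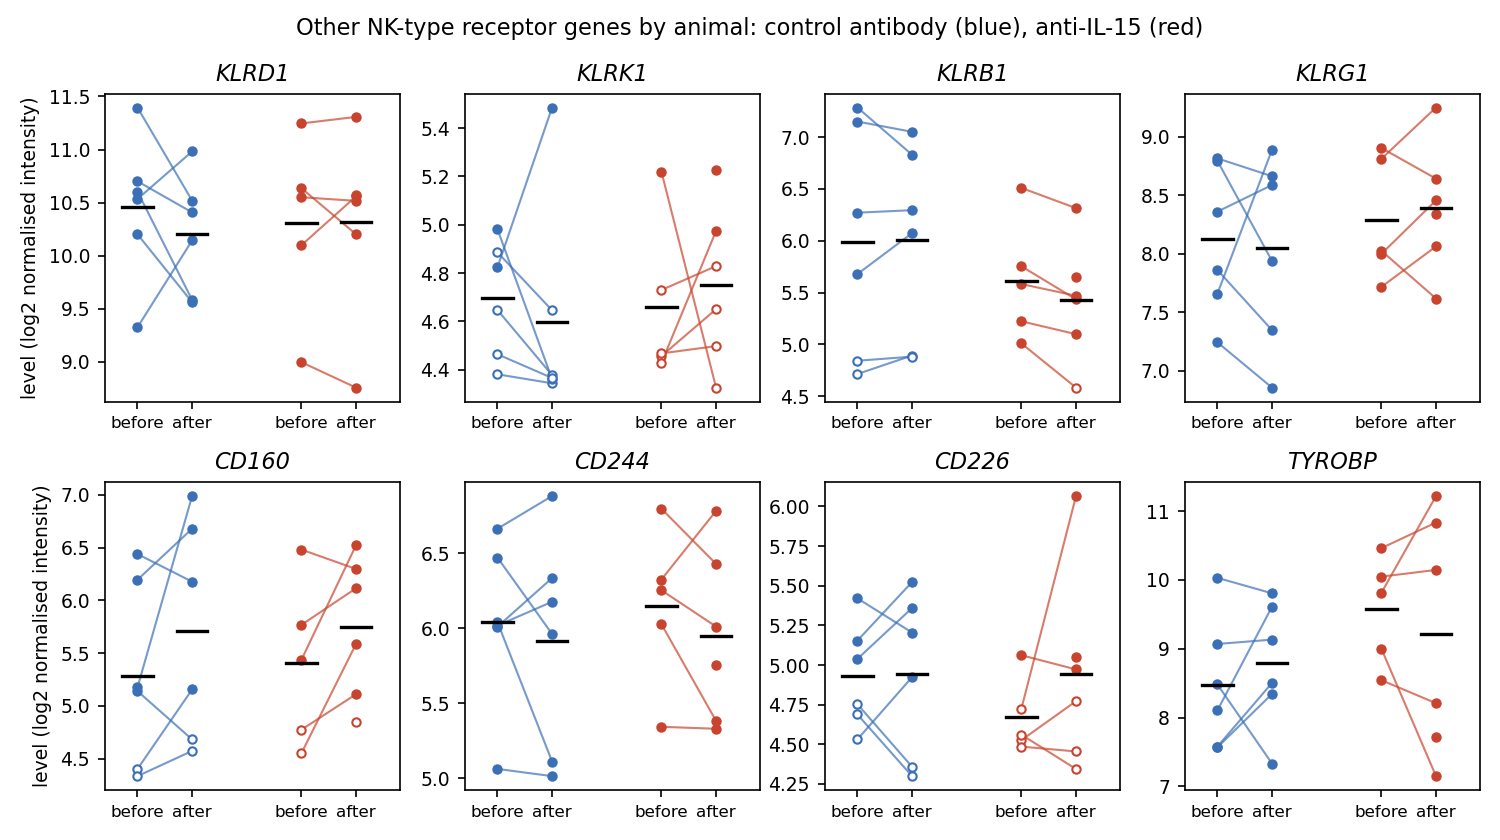
Levels (y axes, log2 normalised intensity, a scale of its own in each panel) of 8 genes on each array, control antibody in blue and anti-IL-15 in red. Lines join arrays of 1 animal, open points were below detection and black bars are group means. KLRB1 lines run almost level within an animal, and TYROBP spans from 7.15 to 11.22 after anti-IL-15.

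The other members except KLRK1 also differed between animals more than most genes did. The intraclass correlation was 0.73 for CD244, 0.68 for KLRD1, 0.66 for CD160, 0.65 for NCR3, 0.57 for KLRG1, 0.57 for TYROBP and 0.41 for CD226. KLRK1, which was mostly below detection, was at -0.02, and 34.6% of genes had a lower value. These are descriptions over 11 paired animals with no test, and the part of signal level in the gap to the median of all genes was not tested.

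KLRG1, an inhibitory receptor for cadherins and a marker of late differentiation, was detected on 23 arrays at levels of 6.85 to 9.25, with a median of 8.34. Its group means were 8.12 ± 0.64 (SD, n = 6) and 8.05 ± 0.81 (n = 6) in the control arm, and 8.29 ± 0.53 (n = 5) and 8.40 ± 0.55 (n = 6) in the anti-IL-15 arm, before and after. The 4 groups overlapped, and the changes of -0.08 (95% interval -0.56 to 0.41) and 0.11 (-0.41 to 0.64) were not called.

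CD160, which binds HVEM (the product of TNFRSF14) and MHC class I, was the member with the largest positive change. In control animals 1 to 6 it went from 5.17 to 6.99, 4.40 to 5.16, 5.14 to 4.68, 4.33 to 4.57, 6.44 to 6.18 and 6.20 to 6.68. In anti-IL-15 animals 1, 2, 4, 5 and 6 it went from 4.77 to 5.11, 6.48 to 6.30, 5.77 to 6.12, 5.44 to 6.52 and 4.55 to 5.59, and animal 3 was at 4.84 after. It was higher after treatment in 8 of 11 animals, on a probe that was below detection on 7 of the 23 arrays. The mean change over both arms was 0.48 (SE 0.18, 95% interval 0.10 to 0.85), and it did not pass (limma adjusted p = 0.111). It was 0.53 with anti-IL-15 and 0.43 in the control arm, a difference of 0.10 (-0.66 to 0.85).

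CD244 (2B4) is a SLAM-family receptor for CD48 that signals through SH2D1A. Its levels ran from 5.01 to 6.88 with a median of 6.03, and the changes were -0.13 (-0.56 to 0.30) with the control antibody and -0.16 (-0.63 to 0.31) with anti-IL-15. CD226 (DNAM-1), an activating receptor for PVR and NECTIN2, ran from 4.30 to 6.07 and was detected on 3, 4, 1 and 3 arrays of control before, control after, anti-IL-15 before and anti-IL-15 after. Its changes were 0.01 (-0.37 to 0.40) and 0.25 (-0.17 to 0.67), and the second included 1.34 in anti-IL-15 animal 5, while 3 of 5 animals were lower. Neither gene was called in any comparison.

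TYROBP (DAP12), the adaptor that carries the signal of activating KIR and NKG2C receptors, is also abundant in myeloid cells. In control animals 1 to 6 its levels went from 7.58 to 8.50, 8.48 to 7.33, 7.57 to 8.34, 8.11 to 9.61, 9.07 to 9.13 and 10.03 to 9.81. In anti-IL-15 animals 1, 2, 4, 5 and 6 they went from 9.00 to 7.15, 10.05 to 10.15, 8.54 to 8.21, 9.81 to 11.22 and 10.46 to 10.84, and animal 3 was at 7.72 after. Its SD within an animal, 0.75, was the largest of the 9 genes. TYROBP began higher in the anti-IL-15 arm, by 1.10 (SE 0.43, 95% interval 0.18 to 2.02), a difference that did not pass (limma adjusted p = 0.409) and whose groups overlapped. Its changes were 0.32 (-0.37 to 1.00) and -0.06 (-0.81 to 0.69).

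Monocyte and dendritic cell markers were read beside TYROBP. Of 9 such genes, 4 were tested. CD14 and CD68 were detected on 23 of 23 arrays, FCN1 on 11 and LYZ on 8, while S100A8 and S100A9 were each detected on 1 array, CSF1R on 2, VCAN on 3 and CD1C on 0. Before treatment CD14 was 0.56 higher in the anti-IL-15 arm (limma adjusted p = 0.399). It changed by -0.52 in that arm and by 0.26 in the control arm. In the same order of arms LYZ changed by 0.57 and 0.01, CD68 by 0.17 and 0.51, and FCN1 by -0.05 and -0.05. None of the 4 genes was called in these comparisons, and their changes did not share a direction. The log2 of their summed level ran from 10.65 to 11.34 before and 10.98 to 11.85 after the control antibody, and from 10.75 to 11.63 before and 10.94 to 12.01 after anti-IL-15. The sum rests mainly on CD68. The part of such cells in the TYROBP levels was not tested.

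A wider list of 26 NK-type receptors outside the 10 genes, also chosen with earlier results known, had 16 tested members. None passed in either arm alone (limma, 8 and 5 of 16 at an unadjusted p under 0.05, beside 15.3% and 19.2% of all genes). In each arm 13 of 16 lay below 0, as did 57.6% of all genes with anti-IL-15 and 55.2% in the control arm. The median change was -0.35 and -0.28, beside -0.05 and -0.04 over all genes, and both arms' changes share one fit. In the mean change over both arms 6 of the 16 fell and 0 rose. In that comparison 7.09% of all genes were called, and 4.15% were called lower.

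KIR3DL1, an inhibitory receptor for MHC class I, fell by 0.89 (SE 0.19, limma adjusted p = 0.0141) and was lower in 10 of 11 animals. KLRF1 (NKp80), an activating lectin-like receptor, fell by 0.96 (SE 0.25, limma adjusted p = 0.0295) and was lower in 10 of 11. KIR2DL4, a KIR whose known human ligand is HLA-G, fell by 0.83 (SE 0.22, limma adjusted p = 0.0324) in 8 of 11, and CD84, a SLAM-family receptor that binds itself, fell by 0.62 (SE 0.14, limma adjusted p = 0.0176) in 9 of 11. The remaining 2 that fell were also KIR genes, at -0.50 and -0.73. KIR genes are near-identical and differ between macaque and human, so which macaque KIR a human probe read is uncertain. Whether several KIR probes read the same transcripts was not tested, so counts over the list may include repeated readings. A second CD84 probe, detected on 12 arrays, changed by 0.04, while a second KIR2DL4 probe, detected on 19, changed by -0.62.

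**Figure D5:**
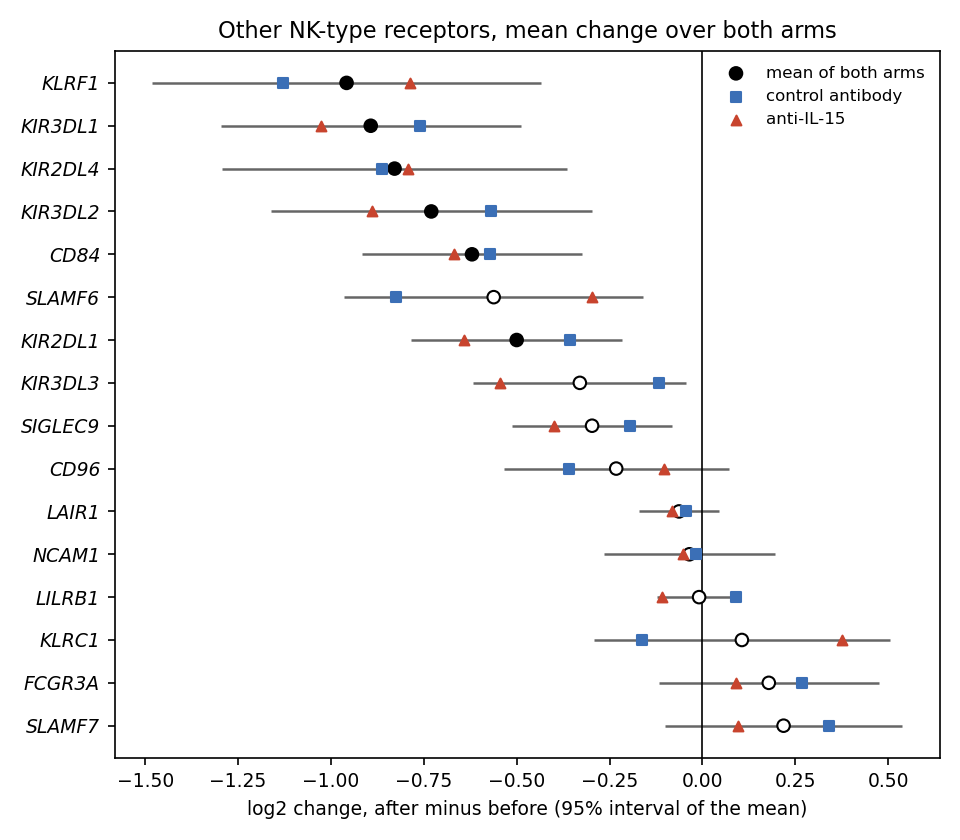
Mean log2 change over both arms (x axis, with its 95% interval) of the 16 other NK-type receptor genes tested, and the change in each arm (blue squares, control antibody, and red triangles, anti-IL-15). Black filled points passed an adjusted p of 0.05 and number 6, all below 0.

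These falls are means over both arms. The difference between the arms was not called for any of the 16 (limma, 0 at an unadjusted p under 0.05), which does not show that the arms changed alike. KLRF1, KIR2DL4 and KIR3DL1 are also on the list of 8 NK cell markers, of which 6 were tested. CD8+ effector memory cells take up part of the NK receptor set, so these genes do not separate the cell types. The log2 of the markers' summed level ran from 9.92 to 11.20 before and 9.78 to 10.43 after the control antibody, and from 9.83 to 10.97 before and 9.71 to 10.37 after anti-IL-15. NCR1, also on that list, was detected on 0 of 23 arrays. Of the 6 tested markers 4 lay below 0 in the mean change and 2 above. Those above were FCGR3A, at 0.18 (limma adjusted p = 0.47), and KLRC1, detected on 16 arrays, at 0.11 (limma adjusted p = 0.779). NCAM1, detected on 8 arrays, changed by -0.04. The part of NK cells in these falls was not tested. The count of 6 was 0 with the number of sorted cells as a covariate, where no gene of the 9190 was called, and it was 1 without control animal 1, 3 without control animal 2 or 4, and 2 without anti-IL-15 animal 1 or 2.

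Of 17 adaptors and kinases that these receptors use, 12 were tested and none was called in any comparison (limma, 0 in the anti-IL-15 arm and 4 in the control arm at an unadjusted p under 0.05, beside 15.3% and 19.2% of all genes). The smallest p-values over the 2 antibody changes belonged to INPP5D (SHIP1), a phosphatase recruited by inhibitory receptors, which changed by -0.55 with the control antibody (SE 0.19, limma adjusted p = 0.103), and to HCST (DAP10), the adaptor of NKG2D, which changed by -0.42 (SE 0.15, limma adjusted p = 0.13). HCST lies next to TYROBP in the macaque annotation, and its change with anti-IL-15 was -0.03.

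Of 18 genes for ligands of the receptors, 8 were tested, and 2 fell in the mean change over both arms, in which 4.15% of all genes were called lower. Neither call was kept with cell number as a covariate, where no gene was called. CLEC2D, the ligand of KLRB1, fell by 0.50 (SE 0.11, limma adjusted p = 0.0155) and was lower in 9 of 11 animals, while its other probes, detected on 16 and 20 arrays, changed by -0.14 and 0.18. MICB, a ligand of NKG2D, fell by 0.80 (SE 0.21, limma adjusted p = 0.0324) and was lower in 8 of 11.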

How the data were processed

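Total RNA of sorted CD8+ TEM was amplified from equal input and hybridised to Illumina bead arrays, per the labels' protocols. The authors deposited 1 linear intensity per probe and array, not normalised, and a detection p-value beside each deposited intensity. They also deposited a log2 table, which was used as an alternative. Per the submitters' processing notes limma was used, in a version not stated.

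The neqc function of limma 3.58.1 (R 4.3.3) gave background-corrected (offset 16), quantile-normalised log2 values. A probe was kept if its detection p was under 0.05 on 5 or more arrays and no intensity was 0, which held for 15744 of 47230, and the probe with the highest mean stood for its gene. Probes were named from the annotation table of the platform, in which 4612 kept probes had no symbol, and neighbouring genes from a RefSeq macaque table. Symbols are those of the human design.

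Changes with each antibody, their difference and their mean came from 1 limma fit over 23 arrays with animal as a block. The arms were compared after and before treatment in limma fits over 12 and 11 arrays. Benjamini-Hochberg adjustment ran over all 9190 genes, with a threshold of 0.05. The donor label pairs arrays, and arrays of 1 animal deviated from their group means together (correlations 0.05 to 0.51, median 0.31). The donor label names 1 animal per array and time. The SEs, intervals and p-values use a residual variance that is pooled over both arms and moderated by limma with an intensity trend. They therefore do not measure the spread among the animals of 1 arm alone. For NCR3 the SD of the changes was 0.75 with anti-IL-15 (n = 5) and 0.40 with the control antibody (n = 6). The number of arrays limits the precision. The fits were tested on simulated data.

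The 10 genes, the related lists and the marker lists were chosen with earlier results of these data known. Named from a list were its called genes, at most 4 by p, or else the 2 of smallest p in either antibody change. For NCR3 the 3 genes of highest correlation were named. Markers of T cells, NK cells, monocytes, B cells, gamma delta and MAIT T cells, CD4 T cells and naive cells were read, and of these CD8A passed in the mean change (-0.58, where its other probes gave -0.49 and 0.16) and with the control antibody (-0.77), and 3 of 6 tested NK cell markers passed in the mean change. Of the B cell markers 3 of 5 were tested, of the monocyte and dendritic cell markers 4 of 9, of the naive markers 2 of 6 and of the gamma delta and MAIT markers 1 of 7, with no call. None of the 3 CD4 T cell markers was tested.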

Additional observations from a re-analysis of the deposited data

Results flagged for a closer look

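KLRK1 stood at 5.48 in control animal 1 after the antibody, far above the other 5 animals of that group, which lay between 4.34 and 4.65. That array was the only one of the group on which KLRK1 was detected. It was the 1 such gap in 78 groups of values checked, and chance gives such a gap in about 1 of 20 groups.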

How the results depend on the processing

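NCR3 after treatment kept its call under the 11 alternatives that changed normalisation, filter, probe choice, covariate or variance trend (limma adjusted p 0.0094 to 0.0497), and leaving out 1 animal gave -1.85 to -1.56 with 0 or 1 members called. The NCR3 change with anti-IL-15 was no longer called, so that 0 members were, without background correction (-0.91, adjusted p 0.0528), in the authors' deposited table (-0.91, 0.0526), without a detection filter (-0.99, 0.0843), with every kept probe tested (-0.99, 0.069), without the replicate block (-1.04, 0.305), in the paired arrays of 1 arm (-0.99, 0.0624), with cell number as a covariate (-0.77, 0.888) and without the intensity trend (-0.99, 0.0666). Leaving out 1 animal gave -1.28 to -0.80 and 0 or 1 members. In the mean change 1 member, NCR3, was called with 75th percentile scaling, and 0 or 1 on leaving out 1 animal. That scaling called 653 of 884 genes lower, against 381 of 652. The count of 6 other receptors that fell was 3 with detection on every array, 2 without a filter, 0 without the replicate block, 0 with cell number and 3 with a 28S ribosomal probe as a covariate, and 1 to 8 on leaving out 1 animal. The block changed no other count of members. Over the 52 uncalled member results, 1187 of 1224 alternatives stayed within 1 SE, 113 changed sign and 2 were called. The causes were not tested. Signal over background limits KLRK1, CD226, CD160 and, in part, KLRB1.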
